A study of Daphnia magna with 30 samples.

Results

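The shortest day of the series, 4L:20D (4 h of light and 20 h of dark), was set against the equinox day, 12L:12D (12 h of each), in Daphnia magna, a planktonic freshwater crustacean. All arrays titled with either photoperiod were taken, 6 of each and so 12 of the 30 arrays in the series. No array of the 16L:8D control entered the main comparison. The 6 arrays of 8L:16D (8 h of light and 16 h of dark) were used to place the day length between them. Alternatives named as fits on 24 or 30 arrays took in further photoperiods. Those on 24 arrays added 8L:16D and 20L:4D (20 h of light and 4 h of dark). Those on 30 arrays, among them the fit with slide as a fixed block, added the 16L:8D control as well. Animals of all 5 photoperiods were females of 1 clone, bred from a single individual. They had been moved as newborns out of cultures at 16L:8D, were kept at 25 °C and were taken whole at an age of 21 days, with whatever eggs or young the brood pouch held, so a value covers the mother and her brood together. Sampling followed soon after lights-on, at the end of 20 h of dark in 4L:20D, 16 h in 8L:16D and 12 h in 12L:12D. Each photoperiod had 3 chambers standing together in 1 box, so the box and the photoperiod cannot be told apart. From each chamber 2 animals, lettered A and B, were drawn at random and each was put on an array of its own. The 6 animals of a photoperiod therefore come from 3 chambers, and p-values over arrays count animals that shared a chamber.

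Daphnia females reproduce without mating while days are long, and short days, together with crowding and scarce food, are known cues for broods of males and for resting eggs. Light reaches the animal through opsins in the compound eye, and arrestin shuts an activated opsin off. An adult female moults, fills her brood pouch and releases the brood in one repeating cycle, during which cuticle and egg envelope transcripts come and go. Cytochrome P450 enzymes oxidise lipids, hormones and foreign compounds, and apolipoprotein D, in insects and vertebrates, is a small secreted protein that binds lipophilic molecules.

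Among the 19 probes that passed the test described below, 10 are listed with their sequences in the study's supplementary tables. The probes are designed oligonucleotides read 5′ to 3′, and those on which the account rests most are shown here so that the transcripts, several of which have no name, can be recognised.
DM15253P2 (hypothetical protein): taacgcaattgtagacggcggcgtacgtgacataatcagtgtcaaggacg
DM02198P3 (apolipoprotein D): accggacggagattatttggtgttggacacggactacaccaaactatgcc
DM12027P2 (cytochrome P450 305a1): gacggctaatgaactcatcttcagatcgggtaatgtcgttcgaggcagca
DM01763P4 (hypothetical protein): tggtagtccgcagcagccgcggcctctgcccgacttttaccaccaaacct
DM02748P1 (uncharacterized protein APZ42_005326): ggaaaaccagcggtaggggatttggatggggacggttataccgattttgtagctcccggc
DM07176P3 (no match): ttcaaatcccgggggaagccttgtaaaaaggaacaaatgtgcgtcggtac
DM08911P1 (uncharacterized protein APZ42_000816): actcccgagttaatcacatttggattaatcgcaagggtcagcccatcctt
Over the 45 pairs of these 10 probes the longest stretch shared on either strand was 8 bases, so no pair of them covers a longer run in common. Their GC content ran between 46% and 62%, and the median of the 953 listed probes with a sequence was 48%. Names are those the study gave, and chromosome positions are not given here.

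Array signal and the spread between animals were looked at first. The 75th percentile of processed intensity, a measure of how bright an array was, averaged 480 ± 63.0 on arrays of 4L:20D and 552 ± 24.4 on arrays of 12L:12D (SD, n = 6 each), a difference larger than the spread (two-sided exact permutation test over arrays, p = 0.013). Over the 3 chamber means a side the same exact permutation test gave p = 0.1, the smallest value that design allows, and the dimmest array, animal 1A of 4L:20D, was at 362. The share of probes that the scanner software called well above background averaged 80.4 ± 4.1% in 4L:20D against 84.1 ± 4.1% in 12L:12D (exact permutation test, p = 0.154). All values below are log2 intensities relative to the 75th percentile of their own array, and a value of 0 means that the probe was as bright as that percentile. In a principal component analysis of 14277 probes, the first component held 36.7% of the variance, and animals 1A and 2A of 12L:12D scored 129 and 113 on it, against -43.6 to 27.9 for the other animals. Photoperiod took up 16.9% of the variance on the first pair of components. The main counts of calls are also given without those 2 animals. Vitellogenin, the yolk protein of egg-bearing females (DM00375P2), was well above background on all 12 arrays.

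**Figure D1:**
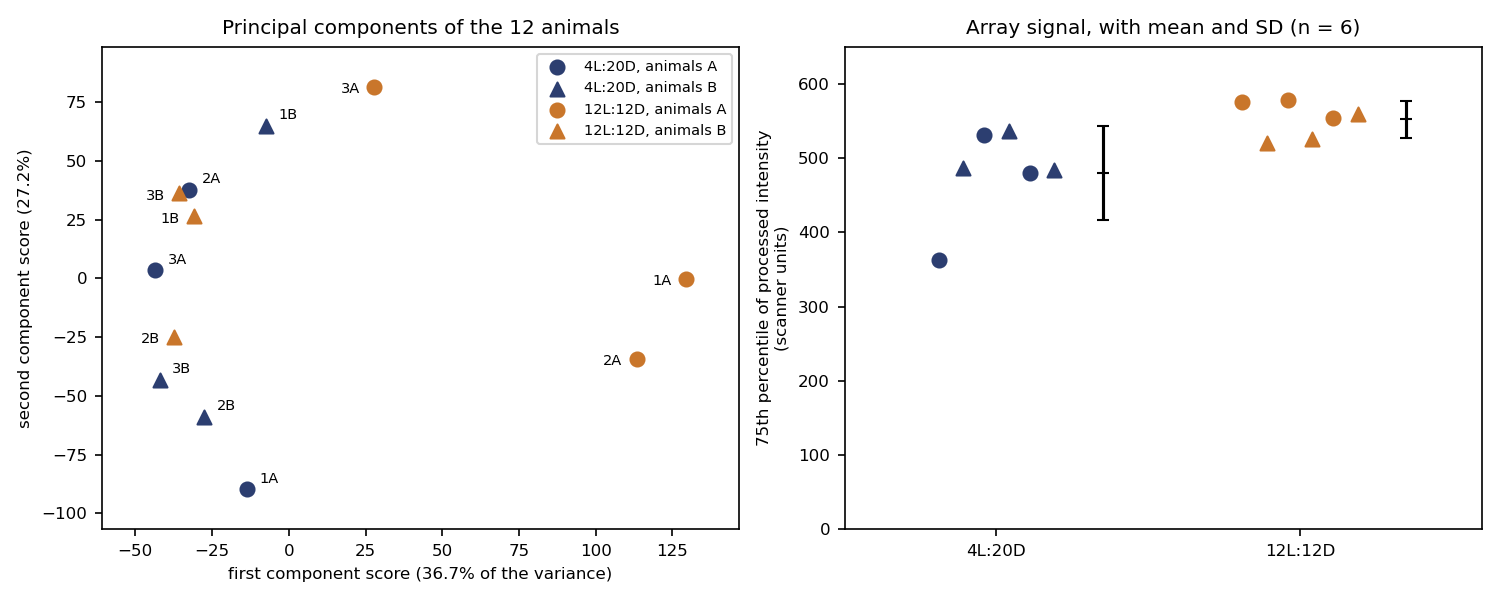
Left, scores of the 12 animals on the first and second principal components of 14277 probes (circles, animals A; triangles, animals B; numbers give the chamber). Animals 1A and 2A of 12L:12D stand at the right, while the animals of 4L:20D and the B animals of 12L:12D lie together at the left; right, the 75th percentile of processed intensity of each array, with the mean and SD of each photoperiod (480 ± 63.0 in 4L:20D, 552 ± 24.4 in 12L:12D).

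Of 14338 probes, 19 passed an adjusted p of 0.05 (0.133%), and all 19 were lower in 4L:20D on average, by 2.39-fold to 12.6-fold for the 13 probes that were well above background on arrays of both photoperiods. Among these 13, DM10921P1, DM12302P1, DM06379P1 and DM03988P2 were high only in the A animals of 12L:12D. Their folds therefore average unlike differences in A and B animals. The other 6 called probes were at the floor on all arrays of 4L:20D. Without adjustment, 302 probes had a p below 0.01, where 143 are expected by chance, and 275 of all probes (1.92%) also differed by at least 1.5-fold, 56 higher in 4L:20D (0.391%) and 219 lower (1.53%). That balance was not kept in all fits, with 199 higher and 120 lower when slide was a fixed block, 54 and 54 with the first row of the slide as a term and 148 and 142 without chamber 2 of 12L:12D. The values of the 6 animals of one photoperiod did not overlap those of the other for 14 of the 19 probes, and for 36 of all probes (0.251%), of which 29 were lower in 4L:20D (0.202%) and 7 higher (0.0488%). The named proteins among the 19 were apolipoprotein D and cytochrome P450 305a1. The remaining 17 were 3 hypothetical proteins, 3 uncharacterized proteins, 2 sequences with no match and 9 probes outside the study's lists, for which no annotation was at hand. All 19 kept their direction in every alternative in which they were tested. This says little, since the alternatives refit arrays on which the 19 were picked. Averaging the animals of each chamber, 3 chamber means against 3, left 0 of them past adjustment by limma, with 1139 probes at an unadjusted p below 0.05. The count of limma calls was 100, 0 and 10 without chambers 1, 2 and 3 of 4L:20D (989 probes at an unadjusted p below 0.05 without chamber 2) and 3, 6 and 225 without those of 12L:12D. Without animals 1A and 2A of 12L:12D it was 8, of which 3 were among the 19, DM15253P2, DM02198P3 and DM12027P2, and with the letter also left out it was 1, DM15253P2.

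**Figure D2:**
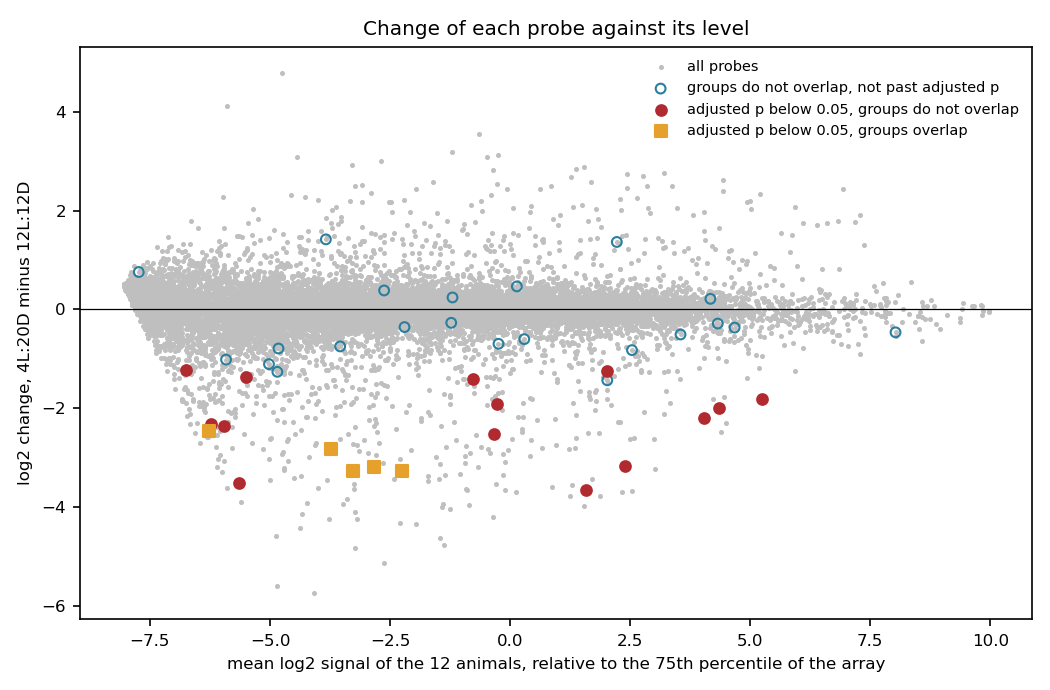
Log2 change of each of 14338 probes (4L:20D minus 12L:12D) against its mean log2 signal in the 12 animals. The 19 probes past an adjusted p of 0.05 (red circles, groups do not overlap; orange squares, groups overlap) all lie below 0.

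The smallest p was that of DM15253P2, a hypothetical protein whose signal was near the floor under the short day. In 4L:20D its lowest, median and highest log2 values were -8.13, -7.30 and -6.56, and 0 of 6 animals were well above background. In 12L:12D they were -4.62, -3.70 and -3.35, with all 6 animals well above background. The photoperiods did not overlap by a wide gap, and the fitted change was -3.52 (SE 0.28, adjusted p = 0.00247). Because no 4L:20D array measured the probe, the fall is given as a bound, at least 3.77-fold, where the dim side is set at the lowest signal counted as well above background on each array, or at the probe's own value where that was higher. Without animals 1A and 2A of 12L:12D the change was -3.72 (adjusted p = 0.008), and it passed in 5 of 6 fits that left out a chamber (0.0748 without chamber 2 of 4L:20D). After normexp and quantile normalisation it was -0.69 (adjusted p = 0.118).

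Apolipoprotein D (DM02198P3) was bright in all animals and lower in the short day. Its values in 4L:20D ran between 4.08 and 4.72 with a median of 4.29, and those in 12L:12D between 5.55 and 6.57 with a median of 6.25. Every animal of 4L:20D was below every animal of 12L:12D, a 3.54-fold fall (log2 change -1.82, SE 0.17, adjusted p = 0.00432). Without the 2 animals that stood apart, the change was -1.93 (adjusted p = 0.041), and -1.78 with the letters also left out of the model (adjusted p = 0.0602).

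Cytochrome P450 305a1 (DM12027P2), a member of the P450 family that oxidises lipophilic compounds, passed the mark of being well above background in 0 animals under the short day and in 3 of 6 under the equinox day. Its lowest, median and highest values were -7.96, -7.45 and -6.56 in 4L:20D and -5.64, -5.43 and -4.14 in 12L:12D. The groups did not overlap, with a fitted change of -2.32 (SE 0.25, adjusted p = 0.00829). Reckoned as above the fall is 1.64-fold, but only 3 of the 12L:12D arrays measured the probe. The other 12L:12D arrays entered at their readings near the floor, so 1.64-fold is not a strict bound. The adjusted p of the probe was 0.412 after normexp and quantile normalisation.

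Other probes at the floor under the short day were DM08656P1, with no match, and DM02407P4, without annotation. Both were well above background in 0 animals of the short day and all 6 of the equinox day. The bounds on their fall are at least 2.03-fold and at least 1.94-fold (adjusted p = 0.0209 for each). After normexp and quantile normalisation neither was called, at -0.37 (adjusted p = 0.050001) and -0.26 (adjusted p = 0.259). DM08656P1 read -7.79 to -6.42 in 4L:20D and -5.67 to -3.78 in 12L:12D, and DM02407P4 read -6.56 to -5.59 in 4L:20D and -5.16 to -4.45 in 12L:12D, without overlap in either. In all, 6 of 14338 probes (0.0418%) had this pattern and 0 had the opposite one. An alpha-amylase, the starch-digesting enzyme (DM01884P2), was among the 6, with a bound of at least 1.44-fold, but its adjusted p was 0.234. Another of them, DM06079P1, singled out after its values were seen, had the largest bound of the 6, at least 15.6-fold, with an SD of 4.67 in 12L:12D and an adjusted p of 0.563. DM01379P4 was called with a change of -1.23 while well above background on no array of either group, so that value gives a direction and no size.

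For a run of 6 probes that fell in the short day, the same animal was the lowest in 8L:16D. The hypothetical protein DM01763P4 had values between -0.08 and 1.81 in 4L:20D (median 0.87) and between 2.93 and 4.69 in 12L:12D (median 3.97), a fall of 8.95-fold (log2 change -3.16, SE 0.35, adjusted p = 0.00829). The uncharacterized protein DM02748P1 had 2.47 to 3.24 in 4L:20D (median 3.02) and 4.21 to 5.65 in 12L:12D (median 5.34), a change of -2.20 (SE 0.26, adjusted p = 0.0111). The hypothetical protein DM05827P3 had 2.79 to 3.83 in 4L:20D (median 3.37) and 4.68 to 6.07 in 12L:12D (median 5.42), a change of -2.01 (SE 0.23, adjusted p = 0.0103). None of these groups overlapped, and normexp with quantile normalisation ended the call of DM05827P3 alone among the 3 (adjusted p = 0.125). The uncharacterized protein DM08380P2 had -1.77 to -0.72 in 4L:20D (median -1.27) and -0.41 to 1.42 in 12L:12D (median 0.76), and DM02970P1, without annotation, had -1.97 to -1.09 in 4L:20D (median -1.38) and -0.58 to 0.34 in 12L:12D (median 0.06). They fell by 1.91 and 1.40 on the log2 scale, with adjusted p of 0.0376 and 0.028. DM05875P1, also without annotation, had the largest fitted change of the called probes, -3.66 (SE 0.54, adjusted p = 0.0355). Its values were between -2.10 and 1.25 in 4L:20D and between 1.67 and 4.2 in 12L:12D. It passed in 10 of 28 alternatives and was not called by limma without the letter (adjusted p = 0.114). In 8L:16D, animal 2B was the lowest of the 6 animals for 10 of the 19 called probes, apolipoprotein D and the 6 probes of this paragraph among them, and for 16.9% of all probes. It was far from the other 8L:16D animals by Dixon's test for DM01763P4, DM05827P3 and DM02970P1 and was not for DM02748P1, DM08380P2 and DM05875P1. It read 3.96 for apolipoprotein D, below every animal of 4L:20D, while the other 8L:16D animals read 5.18 to 5.46.

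DM07176P3 and DM08911P1 had another order across day lengths. DM07176P3 had values between 1.14 and 1.68 in 4L:20D (median 1.39) and between 2.39 and 2.86 in 12L:12D (median 2.66), a change of -1.26 (SE 0.13, adjusted p = 0.00829). DM08911P1, whose older annotation names U1 small nuclear RNA, the RNA part of the spliceosome that marks the start of an intron, had -2.16 to -0.87 in 4L:20D (median -1.71) and -0.40 to 1.67 in 12L:12D (median 1.21), a change of -2.51 (SE 0.36, adjusted p = 0.0341). The photoperiods did not overlap in either probe. In 8L:16D both were at the level of 12L:12D or above, with means of 2.67 and 1.55, except in animal 1A, which read 1.55 and -1.07 and so was within the range of 4L:20D in both.

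**Figure D3:**
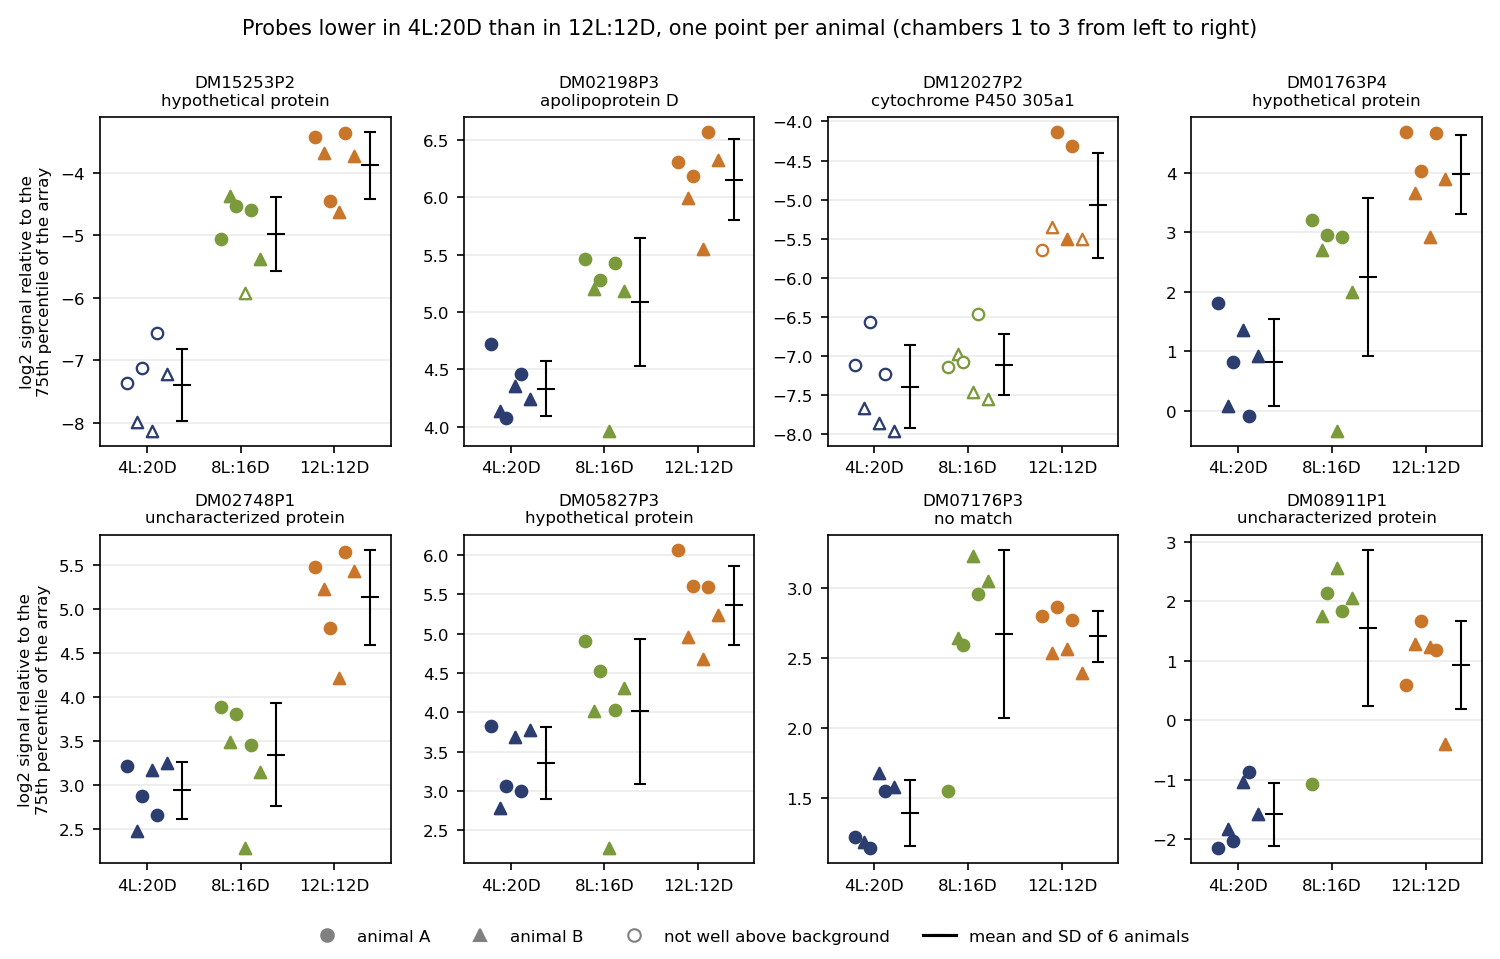
Log2 signal of 8 probes relative to the 75th percentile of each array, 1 point per animal, in 4L:20D, 8L:16D and 12L:12D (circles, animals A; triangles, animals B; open symbols, not well above background; bars, mean and SD of 6 animals). In each panel every animal of 4L:20D lies below every animal of 12L:12D, and animal 2B or 1A of 8L:16D lies apart from the other 8L:16D animals in several.

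The other 5 called probes differed within the equinox day. DM12416P1, DM10921P1, DM12302P1, DM06379P1 and DM03988P2, all without annotation, were high, among these 12 animals, in the 3 A animals of 12L:12D only. DM12416P1 read -8.14 to -6.95 in 4L:20D, against -2.02, -1.88 and -2.42 in the A animals of 12L:12D and -8.35 to -7.77 in its B animals. It was well above background in 0 animals of 4L:20D and in those 3 of 12L:12D. The fall reckoned as for the other floor probes is 1.68-fold, but the B animals of 12L:12D entered at their readings, so it is not a strict bound. DM06379P1 read -5.22 to -3.01 in 4L:20D, against 3.98, 2.61 and 3.35 in the A animals of 12L:12D and -4.93 to -4.17 in its B animals. The highest animal of 4L:20D had -3.20 for DM10921P1, -3.46 for DM12302P1 and -2.69 for DM03988P2, while the lowest A animal of 12L:12D had -0.23, 0.97 and 0.89. Counting probes without overlap too, the 3 A animals of 12L:12D were above all other 9 animals in 10 of the 19 called probes, against 3.07% of all probes. The groups overlapped in all 5 probes, and for DM06379P1 the difference was -7.20 between A animals and 0.64 between B animals (interaction adjusted p = 0.0141). The interaction of letter and photoperiod had an unadjusted p below 0.01 in all 5 and in 400 of all probes. The letters name random draws, so the fit with the letter took this split out of the spread between animals. With the letter left out, 12 probes were called, all 12 among the 19 and all without overlap, and none of these 5 was, at an adjusted p of 0.79 in each.

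No probe higher in the short day passed the test in the main fit, while 9 of 28 alternatives called some, among them 71 with array weights, 28 without chamber 3 of 12L:12D, 21 without chamber 1 of 4L:20D and 2 when only probes well above background on all 12 arrays were tested. The lowest adjusted p of a probe higher in 4L:20D was 0.0595, for DM11411P3, which is without annotation and read 0.82 to 1.96 in 4L:20D, -1.79, -1.70 and -1.36 in the A animals of 12L:12D and 2.10, 2.06 and 2.07 in its B animals. It passed in 7 of the 28 alternatives. Of the 12 probes with the smallest p in this direction, 10 were lower in the 3 A animals of 12L:12D than in all other 9 animals, a pattern that 4.1% of all probes had. A chorion peroxidase precursor-like probe (DM08907P2), named for an enzyme that hardens the insect egg shell, read 1.21, -0.44, 2.17, 2.51, 3.15 and 2.45 in the 6 animals of 4L:20D. The 12L:12D values were -4.46, -4.34 and -5.68 in the A animals and 3.87, 3.45 and 3.61 in the B animals. Its change of 2.43 (SE 0.54, adjusted p = 0.234) was 7.00 between A animals and -2.13 between B animals, and 0.53 once animals 1A and 2A of 12L:12D and the letter were left out. The remaining pair did not overlap between photoperiods. Nitrate reductase 1 (DM05678P4) had 2.48 to 3.41 in 4L:20D (median 2.86) and 1.12 to 2.17 in 12L:12D (median 1.5), a difference of 1.36 (SE 0.23, adjusted p = 0.073) that passed in 4 of the 28 alternatives. A glucose dehydrogenase (DM00868P2), an enzyme of sugar oxidation, had -3.95 to -2.42 in 4L:20D (median -3.10) and -4.77 to -4.00 in 12L:12D (median -4.62), a difference of 1.42 (SE 0.28, adjusted p = 0.179) that passed in 1 of the 28 alternatives. Probes DM12607P4, DM11070P3 and DM00907P2, also annotated as glucose dehydrogenase, differed by -0.54, -0.27 and 0.29.

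**Figure D4:**
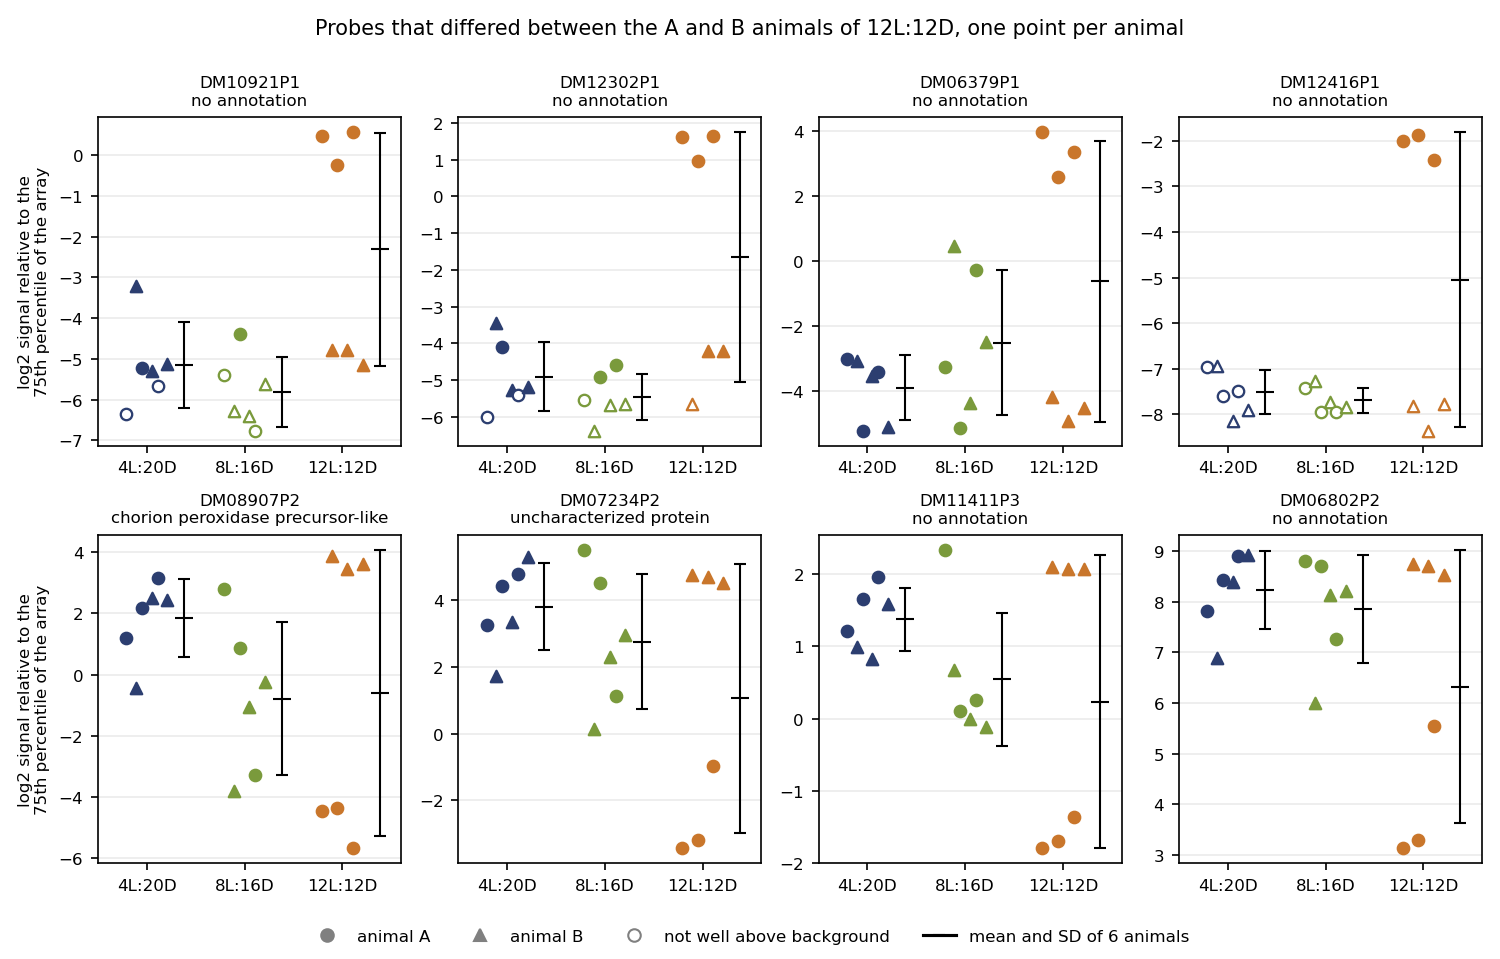
Log2 signal of 4 probes called lower (upper row) and 4 of the probes with the smallest p on the higher side, none called (lower row), 1 point per animal, by day length; symbols and bars as in the plot of probes without overlap. In every panel the A animals of 12L:12D (circles) lie apart from its B animals (triangles). The B animals are near the animals of 4L:20D, except for DM11411P3 and DM08907P2, where they lie above all of them.

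The study named 11 targets by function for this trial, and none of their probes passed adjustment between these day lengths. The study chose them on these samples, so they are not independent evidence. Of the 4 opsin probes, all had negative changes. The largest was in the class a rhodopsin gprop2 (DM12611P4), with -1.08 to -0.01 in 4L:20D (median -0.32) and -0.07 to 0.69 in 12L:12D (median 0.44), a change of -0.85 (SE 0.22, adjusted p = 0.341). Those annotated as gprop1 had changes of -0.55 (DM06155P2), -0.36 (DM06131P3) and -0.14 (DM01796P2). Arrestin (DM03055P2), which is not a target but is on the vision list, had 3.91 to 4.75 in 4L:20D (median 4.15) and 4.64 to 5.16 in 12L:12D (median 4.88), a change of -0.64 (SE 0.18, adjusted p = 0.388), and the groups overlapped. The yolk protein vitellogenin fused with superoxide dismutase (DM00375P2) differed by -0.46 (SE 0.20). The cell-surface receptor Notch (DM03056P3) differed by 0.86 (SE 0.36) and a chitin deacetylase (DM03120P2), which modifies chitin in the cuticle, by 1.41 (SE 0.63). Without animals 1A and 2A of 12L:12D, with the letter kept, DM03120P2 differed by 0.28. Probes DM01941P4 and DM03975P4, which are not targets but are also annotated as chitin deacetylase, went the other way, at -0.97 and -0.82. The other 4 targets differed by -0.36 for brain chitinase (DM13721P2), 0.26 for collagen alpha-1(XVIII) (DM05241P2), 0.27 for F-box/LRR-repeat protein 12 (DM12109P1) and 0.50 for testis development protein nyd-sp29 (DM04300P2). Period, a core clock protein (DM14516P3), differed by 0.11 (SE 0.18), with medians of -4.63 in both photoperiods.

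Lists of functions were drawn by keyword from the annotation of the 958 probes the study lists, which are probes it called in either of its trials, and 238 probes fell in 1 or more of 17 lists. Of all probes, 7549 of 14338 had a positive difference and the median was 0.02. Over the 958 listed probes, 617 were positive and the median was 0.17. The only list members past adjustment were apolipoprotein D and cytochrome P450 305a1, both lower.

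Probes of the basic machinery of the cell had small positive differences. This was so for 22 of 23 proteasome probes, which degrade tagged proteins (median 0.26), 22 of 23 spliceosome probes (median 0.26) and 29 of 30 probes for ribosome biogenesis (median 0.26). For translation it was 17 of 20 (median 0.24), for chaperonins, which fold proteins, 11 of 13 (median 0.21) and for DNA replication and histones 11 of 14 (median 0.41). At an unadjusted p below 0.05, between 1 and 3 members of each of these 6 lists were higher and 0 were lower, beside 447 higher and 656 lower of all 14338 probes. The mean over the proteasome probes was between -0.75 and -0.28 in 4L:20D (median -0.42) and between -1.03 and -0.06 in 12L:12D (median -0.82), so the photoperiods overlapped. Animal 2B of 12L:12D had the highest mean of all 12 animals in each of these 6 lists, and so was not lower than the short-day animals. For the spliceosome it was at -0.41, against -1.34 to -0.84 in 4L:20D. A splicing factor (DM11603P2) differed by 0.56 (SE 0.24, adjusted p = 0.642), and animal 2B of 12L:12D was above all other 12L:12D animals, at 2.88 against 1.32 to 1.70. The chaperonin median was 0.03 after normexp and quantile normalisation.

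Lipid metabolism and detoxification leaned the other way. Of 16 probes for lipid metabolism, 12 had negative differences (median -0.24). The mean over the 16 was between -1.69 and -1.39 in 4L:20D and between -1.37 and -1.07 in 12L:12D. It did not overlap, but by a narrow gap, with animal 1A of 4L:20D at -1.39 and animal 3A of 12L:12D at -1.37. That mean includes apolipoprotein D, the only 1 of these 16 probes without overlap of its own, and was not taken without it. Beside apolipoprotein D they held a fatty acyl-CoA reductase, which makes fatty alcohols (DM14584P3, fitted change -1.82, SE 0.46, adjusted p = 0.317), and a mitochondrial acyl-CoA synthetase (DM04198P3, -0.64, SE 0.22). Well above background for the reductase were 0 animals of 4L:20D and 2 of 12L:12D, which were 1A and 2A, so no fold is given for it. Of 18 detoxification probes, 15 had negative differences (median -0.27), among them a glutathione S-transferase, which conjugates foreign compounds (DM05883P1, -0.63, SE 0.22), while a sulfotransferase (DM06652P1) differed by 0.82. Without animals 1A and 2A of 12L:12D the medians were -0.14 for lipid metabolism and -0.08 for detoxification.

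Lists tied to the moult and brood cycle were spread wide on both sides. Of 9 egg probes, 5 were positive and the median was 0.86, with 4 higher and 1 lower at an unadjusted p below 0.05 (447 and 656 of all 14338 probes), but the median was 0.10 after normexp and quantile normalisation. The mean over the egg probes was between -2.16 and -1.01 in 4L:20D. In 12L:12D it was between -3.32 and -3.08 in the A animals and between -1.06 and -0.86 in the B animals. A second chorion peroxidase precursor (DM03869P1) differed by 1.46 (SE 0.47, adjusted p = 0.469). It read -5.33 to -2.09 in 4L:20D and -7.39 to -3.23 in 12L:12D, so the groups overlapped. The A animals of 12L:12D were at -7.02, -7.39 and -6.14, and its highest value was that of a B animal. Of 17 cuticle and chitin probes, 10 were positive (median 0.14), and changes ran between -1.17 and 1.41. Without animals 1A and 2A of 12L:12D the median was 0.64. A cuticle protein (DM12885P2) differed by 1.23 (SE 0.46, adjusted p = 0.59), with 2.59 to 5.73 in 4L:20D, the A animals of 12L:12D at 2.05, 1.67 and 2.00 and its B animals at 5.57, 5.64 and 5.02. Digestive enzymes were split, 12 positive and 13 negative of 25, and all 3 alpha-amylase probes were on the negative side. Of these DM00223P2 differed by -1.25 (SE 0.45, adjusted p = 0.56), while DM01884P2 and DM05956P1 were well above background on 0 and 1 of the 6 arrays of 4L:20D. Of 15 probes for carbohydrate metabolism 7 were positive. Of 4 clock probes 3 were positive. A nuclear receptor of subfamily 1 group D, named for a repressor in the vertebrate clock (DM00285P3), differed by -0.82 (SE 0.23, adjusted p = 0.409). It read -1.42 to 0.09 in 4L:20D and -0.78 to 0.81 in 12L:12D (median 0.24), so the groups overlapped. The A animals of 12L:12D were at 0.81, 0.76 and 0.58, and its lowest value was that of a B animal. Of 4 heme and iron probes 1 was positive, with hemoglobin (DM01567P2) at -0.70 (SE 0.59). Of 3 sex determination probes 2 were positive, and of 4 glutamate probes 3, a kainate glutamate receptor (DM10810P1) differing by 1.43 (SE 0.56, adjusted p = 0.622).

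**Figure D5:**
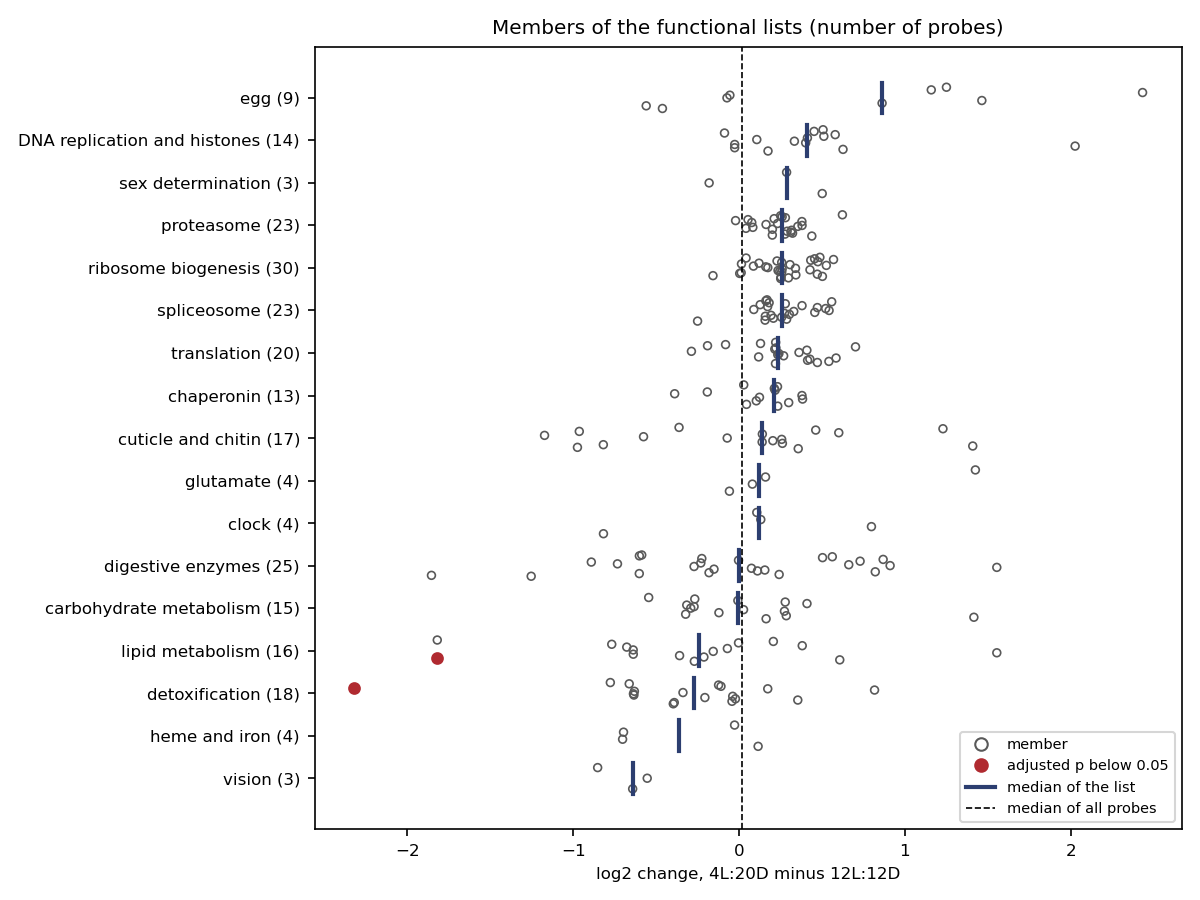
Log2 change (4L:20D minus 12L:12D) of each probe in 17 functional lists, with the median of the list (blue bar) and of all probes (dashed line, 0.02). Apolipoprotein D and cytochrome P450 305a1 (red) are the members past an adjusted p of 0.05, and the proteasome, spliceosome and ribosome biogenesis probes gather near 0.26.

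The 8L:16D animals were then placed on the line between the short and the equinox day. Of the 13 called probes well above background on arrays of both photoperiods, the mean of 8L:16D lay between those of 4L:20D and 12L:12D for 8 and was nearer to 4L:20D for 10. Without animal 2B of 8L:16D, left out after its values were seen, these counts were 9 and 6. Counting the step from the short to the equinox day as the whole, 8L:16D had covered 45.1% for DM01763P4 (61.4% without 2B), 41.4% for apolipoprotein D (53.7%), 32.8% for DM05827P3 (50.1%) and 18.5% for DM02748P1 (28.2%). The side of the midpoint on which 3 of these lay thus rested on that animal. For DM07176P3 the share was 101%, and 92.4% without 2B. A contrast of 8L:16D with the midpoint of 4L:20D and 12L:12D, fitted on 18 arrays, called 14 of 14338 probes (0.0976%), 6 above the midpoint and 8 below, and 492 probes (3.43%) by the unadjusted p with 1.5-fold. Of the 19 called probes, 3 were off the midpoint after adjustment, DM10921P1, DM12302P1 and DM12416P1, all high in the A animals of 12L:12D only. Without chambers 1, 2 and 3 this contrast called 156, 8 and 1 probes where they were of 4L:20D, 3, 0 and 0 where of 8L:16D and 2, 42 and 93 where of 12L:12D. By the unadjusted rule the counts without chambers 2 and 3 of 8L:16D were 322 and 193.

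The arrays of the 2 photoperiods were not spread alike over the slides. The first row of a slide held 3 arrays of 4L:20D but 0 of 12L:12D. With the first row as a term, 5 probes passed, 4 of them among the 19, which were DM15253P2, DM02198P3, DM01763P4 and DM02748P1, and the probes past the unadjusted rule were split 54 higher and 54 lower. With slide as a fixed block over 30 arrays, 1 probe passed. On the 2 slides that held both photoperiods, with 1 short-day and 2 equinox arrays on one and 1 of each on the other, the differences of the 19 called probes ran between -4.83 and -1.01 and between -6.37 and -0.15. Their sign there says nothing about the slides, since 14 of the 19 were without overlap on these same arrays and the equinox arrays on the 2 slides include animals 1A and 2A, in which the other 5 were high. The part of the row in these counts was not tested beyond that term.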

How the data were processed

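RNA of single animals was hybridised to 1-colour Agilent arrays. The deposited scanner files hold the processed intensity that Agilent Feature Extraction gave (version 9.5.1 per the labels, 10.7.3.1 per the file headers), background-corrected, and flags for outliers and for probes well above background. The authors also deposited log2 values, made by a 75th percentile shift per array and a centring on each probe's median, used here as an alternative. From the scanner intensity, log2 minus the array's 75th percentile was taken over 15208 non-control spots, spots flagged as outliers (0.0487% over 30 arrays) were set to missing and duplicates were averaged, giving 14338 probes. limma 3.58.1 in R 4.3.3 fitted photoperiod, letter and their interaction, as in the study's methods, with Benjamini-Hochberg adjustment at 0.05. The second rule was an unadjusted p below 0.01 and at least 1.5-fold. Named were the 12 smallest p of each direction among probes well above background on at least 5 of 6 arrays of a group, up to 3 per direction present in all of 1 group and none of the other, the study's 11 targets and up to 3 members of each list with the smallest p. The remaining called probes and any others were named after their values were seen. Annotation existed for 958 probes, and 0 probe names matched the reference gene table. Members and lists were chosen with earlier results of these data known. On simulated data with 200 changed probes of 14277 the fit recovered 35% of log2 changes of 1 and 82% of 2, with 6 false calls. Recovery and false calls where letters, chambers or slide rows differ, as they do on these arrays, was not tested. The files hold no mean signal, so normexp (offset 50) used the median signal and background. The number of arrays limits the precision. Chamber numbers did not pair the photoperiods, and the authors' own comparison columns were not used.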

Additional observations from a re-analysis of the deposited data

Results flagged for a closer look

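Of 258 groups of 6 animals tested with Dixon's test, 21 held an animal far from the others, where 12.9 are expected since chance flags about 1 in 20. Animal 2B of 8L:16D was the lowest at 3.96 for apolipoprotein D (DM02198P3), -0.33 for DM01763P4, 2.27 for DM05827P3, -7.68 for DM02407P4, -1.94 for DM02970P1 and -7.46 for DM01379P4, and the highest at -0.66 for the opsin DM01796P2. Animal 1A of 8L:16D was the highest at 2.33 for DM11411P3 and the lowest at -1.07 for DM08911P1. In 4L:20D, animal 1B was the lowest at 2.79 for DM11492P1, 2.59 for the cuticle protein DM12885P2 and -0.33 for the kainate receptor DM10810P1, animal 2A was the lowest at -5.97 for a glucose dehydrogenase (DM12607P4), and the array of animal 1A had the lowest 75th percentile of intensity, 362. In 12L:12D, animal 2B was the highest at 0.45 for a T-complex chaperonin subunit (DM00768P3), 2.58 for histone H2A.V (DM04808P4), -1.17 for a 26S protease subunit (DM00745P4), 2.88 for a splicing factor (DM11603P2) and 1.55 for a U5 small nuclear ribonucleoprotein (DM03445P2), and the lowest at 1.67 for DM05875P1. Animal 1B of 12L:12D was the highest at -4.00 for a glucose dehydrogenase (DM00868P2).

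The difference between photoperiods itself differed between A and B animals, by an interaction past an adjusted p of 0.05, in 6 named probes. Among all 14337 probes tested for it, 19 passed. The letters name random draws, and these 6 were named for a small p or a call in the same fit. The difference in A animals minus that in B animals was -6.38 for DM10921P1, -6.64 for DM12302P1, -7.84 for DM06379P1, -5.56 for DM12416P1, 4.17 for DM11411P3 and 9.14 for the chorion peroxidase precursor-like probe DM08907P2.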

How the results depend on the processing

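The 19 calls depended on the model. The count was 12 without the letter, 12 with slide as a random block, 2 on the 24 arrays without 16L:8D, 1 on all 30 arrays, 1 with slide as a fixed block, 5 with the first row as a term, 5 without moderation, 340 with array weights and 0 with chamber means. With the replicate block it was 5, but the numbers do not pair the animals (correlations of deviations 0.07, -0.01 and -0.02). It was 8 without the 2 animals of 12L:12D that stood apart, 1 without the letter as well, both chosen after seeing the data, and 0 to 225 with a chamber left out. The 275 probes of the unadjusted rule became 168 with normexp, 173 among probes well above background on all arrays, 99 without the letter, 104 with the replicate block, 135 with chamber as a random block, 94 with slide as a random block, 108 with the first row, 69 on 30 arrays, 113 on 24, 921 with array weights, 168 without moderation, 61 without the 2 animals and the letter, and 123 to 501 with a chamber left out. The share of them that was higher was 20.4% in the main fit, 62.4% with slide as a fixed block, 50% with the first row, 35% with array weights and 51% without chamber 2 of 12L:12D. The letter had 223 probes at an unadjusted p below 0.01, and 113 to 543 with a chamber left out, and the interaction 400, and 211 to 585. The midpoint contrast had 14 calls, 4 without the letter, 0 with the replicate block, 8 without the 2 animals and 0 to 156 with a chamber left out, and 492 by the unadjusted rule, 249 with normexp and 193 to 774. The difference in array brightness was -44 to -99 with a chamber left out, and without chamber 3 of 12L:12D, at -69.8, its p was 0.081. Medians moved with normexp to 0.0309 for chaperonins, 0.10 for egg and -0.15 for lipid metabolism, and without the 2 animals to 0.64 for cuticle and chitin, 0.0302 for heme and iron, -0.077 for detoxification and -0.14 for lipid metabolism. Over 84 named probes and their alternatives, 2016 of 2319 fits kept direction and side, 252 lost the call and 39 gained one. Only the 19 called probes could lose a call, so all 252 losses were theirs. A probe not called in the main fit counts as keeping its side while it stays uncalled. The 2016 therefore do not measure how stable the calls were. In 12 fits a probe turned direction, none of them for a called probe. Those were DM00966P3, at 0.12 without chamber 2 of 4L:20D, 0.10 without chamber 2 of 12L:12D, and 0.0819 and 0.0575 without the 2 animals with and without the letter (-0.227 without chamber 3 of 4L:20D), DM10654P3, at -0.0195 with slide as a fixed block, -0.12 with array weights and -0.10 without chamber 2 of 12L:12D (0.31 without chamber 3), DM06854P1, at 0.03 without chamber 3 of 4L:20D and 0.11 without chamber 2 of 12L:12D (-0.43 without chamber 1 of 4L:20D), DM06131P3, at 0.0384 with normexp, and DM01567P2 at 0.0467 and DM01397P2 at -0.0822 without the 2 animals and the letter. The cause of these shifts was not tested.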
